A study of Saccharomyces cerevisiae with 8 samples.

Results

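The 9 genes described here encode enzymes of phospholipid synthesis in *S. cerevisiae* and the regulators that control them through inositol. They were taken by their open reading frame (ORF) identifiers, out of 6152 ORFs in the value table. No cutoff on their values was used, but earlier results of these data were known when they were chosen. The enzymes are *CHO1* (YER026C), *PSD1* (YNL169C), *PSD2* (YGR170W), *CHO2* (YGR157W), *OPI3* (YJR073C) and *INO1* (YJL153C), and the regulators are *INO2* (YDR123C), *INO4* (YOL108C) and *OPI1* (YHL020C). All 9 genes had a value in each of the 8 conditions.

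RNA came from 2 strains of different origin, CECT10094 from flor wine and Temohaya-MI26 from an agave fermentation, of which CECT10094 is the more ethanol tolerant. The sample labels name them PE35M and TEMOHAYA-26, and the study puts the first name down to an earlier misidentification. Each strain, started from 1 colony, was grown in rich medium with glucose (GPY) at 28 °C without ethanol (0%) or with 10% (v/v) ethanol. Early samples were collected after 1 h, and late samples after 10 h at 0% in both strains, after 28 h at 10% in CECT10094 and after 40 h at 10% in Temohaya-MI26. Ethanol and hours of culture therefore cannot be told apart in the late comparisons. The labels place the late samples in exponential phase and the methods after it.

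Each value is a log2 ratio, with Cy5-labelled cDNA of the condition over a Cy3-labelled pool of RNA from all samples, as the median of up to 3 slides and at least 2, and there is 1 column per condition. A value of 0 is the level of the pool, so values can be compared between conditions of a gene but not between genes. The columns held 5612 to 6115 ORFs, and their medians lay between -0.22 and 0.32. In these values there was no replicate check of any single difference, and the spread between slides cannot be recovered from the medians. Precision is limited by how few arrays there are. The study also measured some genes by RT-qPCR, *OPI3* in both strains among them, and reports a high relation to its arrays. On chromosomes I and III and the right arm of chromosome II, 616 ORFs lay above the column median by 0.46 and 0.69 in the late columns at 0%, and by 0.05 to 0.20 in the others. None of the 9 genes lies there.

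In yeast, the main phospholipids are built from CDP-diacylglycerol. Cho1p joins it to serine to give phosphatidylserine, the decarboxylases Psd1p in mitochondria and Psd2p in the Golgi and endosomes turn this into phosphatidylethanolamine, and the methyltransferases Cho2p and Opi3p carry it on to phosphatidylcholine, with Opi3p adding the last methyl groups. Ino1p makes inositol 3-phosphate from glucose 6-phosphate, the source of inositol for phosphatidylinositol. Many of these genes carry an inositol-sensitive element in their promoters, which is bound by the Ino2p-Ino4p activator. Opi1p represses them, and is held outside the nucleus at the endoplasmic reticulum while phosphatidic acid is plentiful. Inositol and choline in the medium lower the expression of these genes, and *INO1* is among the most strongly regulated of them.

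*OPI3* had the widest range of the 9 genes, 4.97 on the log2 scale, and the range came from the early samples without ethanol. In CECT10094 its log2 ratio was -3.02 early at 0%, 0.66 early at 10%, 1.03 late at 0% and -0.02 late at 10%. In Temohaya-MI26 it was -3.62, -0.40, 1.35 and 0.21 in the same order. Both strains thus had little *OPI3* RNA relative to the pool after 1 h without ethanol, and values within 1.35 of the pool in the other 6 columns. Only 40 of 6055 ORFs were lower than *OPI3* early at 0% in CECT10094, and only 17 of 6016 in Temohaya-MI26.

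The other 8 genes stayed closer to the pool. *INO1* spanned 2.85 between its lowest and highest column, *CHO1* 2.20, *INO2* 1.89, *CHO2* 1.56, *PSD2* 1.49, *OPI1* 1.39, *PSD1* 1.20 and *INO4*, the partner of *INO2*, 0.90. In 4 genes the lowest column was the early sample at 0% of Temohaya-MI26 (*OPI3*, *CHO1*, *INO4* and *OPI1*).

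**Figure D1:**
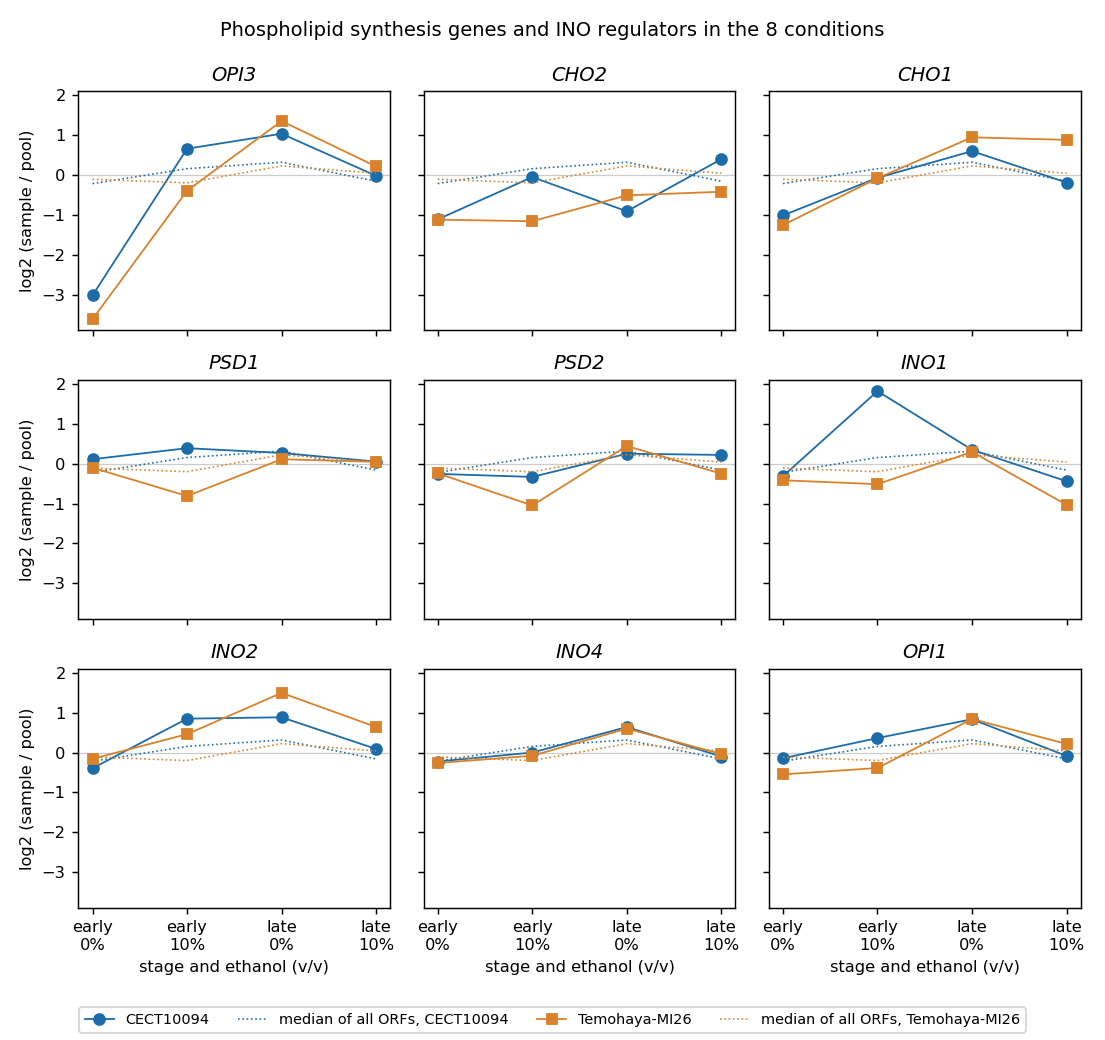
Log2 ratio of sample to pool (y axis) of each of the 9 genes in the 8 conditions (x axis, stage and ethanol), with 1 point per condition and strain (CECT10094 blue circles, Temohaya-MI26 orange squares) and dotted lines for the median of all ORFs. *OPI3* lay at -3.02 and -3.62 early at 0%, and *INO1* stood above its other values in 1 sample, CECT10094 early at 10%, at 1.82.

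To follow the effect of ethanol, the ratio at 0% was subtracted from the ratio at 10% of the same strain and stage, which removes the pool. A difference was called, by the limits of the methods, when it fell outside limits set around the mean of all ORFs from their standard deviation, which would hold 95% of a normal distribution. Passing a limit is a place in the distribution, and no test stands behind it. The methods also corrected for false discoveries, without saying how. That step was not done here, so these calls are not those of the study. After 1 h the limits of CECT10094 were -1.53 and 2.29, and those of Temohaya-MI26 were -2.21 and 2.07. By this rule 2.18% of all ORFs were above and 3.53% below the limits in CECT10094, and 2.74% and 3.08% in Temohaya-MI26.

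Of the 9 genes, 1 passed the upper limit in each strain after 1 h, *OPI3*, and none passed a lower limit. Its difference was 3.68 in CECT10094, a ratio 12.8 times that without ethanol, and 3.22 in Temohaya-MI26, 9.32 times. Only a small part of all ORFs had a larger one, since 99.8% had a lower difference in CECT10094 and 99.2% in Temohaya-MI26. With the columns centred on their medians these differences were 3.31 and 3.31, and after quantile normalization they were 2.99 and 2.54.

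limma, with a block for every strain at every stage, tested whether the early difference, averaged over the strains, differed from 0. In this fit the other strain is the only repeat. Its p-value therefore rests on how far the strains differ, at both stages, and on a spread estimated over all ORFs. It does not measure the spread between cultures, and a call does not by itself show that the strains agree. *OPI3* was higher with ethanol by 3.45 ± 0.35 (SE, 2 strains, limma adjusted p = 0.000273). It was the only one of the 9 genes called, where 10.5% of all ORFs were called higher and 6.94% lower, and 3 of the 9 genes had an unadjusted p under 0.05, as did 1830 of 5905 ORFs, a similar share.

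*CHO1*, the phosphatidylserine synthase gene, followed the same order of conditions as *OPI3* at a smaller scale. Its log2 ratio in CECT10094 was -1.02 early at 0%, -0.07 early at 10%, 0.60 late at 0% and -0.19 late at 10%. In Temohaya-MI26 it was -1.26, -0.08, 0.94 and 0.88. The early samples at 0% were the lowest in both strains, and the 2 strains parted late at 10%, where CECT10094 was 1.07 below Temohaya-MI26. Those late samples also differ in hours, 28 against 40. The early difference with ethanol was 0.94 in CECT10094 and 1.18 in Temohaya-MI26, both within the limits (limma 1.06 ± 0.36 SE, adjusted p = 0.0661).

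*CHO2*, whose product adds the first methyl group to phosphatidylethanolamine, did not share the pattern of *OPI3*. In CECT10094 its log2 ratio was -1.12 early at 0%, -0.05 early at 10%, -0.91 late at 0% and 0.40 late at 10%. In Temohaya-MI26 it was -1.12, -1.16, -0.51 and -0.42. In CECT10094 both samples with ethanol were thus above both samples without it, whereas in Temohaya-MI26 the samples split by stage and differed little with ethanol. The early difference was 1.06 in CECT10094 and -0.04 in Temohaya-MI26, the latter turning to 0.05 with centred columns (limma 0.51 ± 0.42 SE, adjusted p = 0.455).

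The decarboxylase genes *PSD1* and *PSD2* stayed within 0.45 of the pool outside 1 sample. The log2 ratio of *PSD1* was between 0.06 and 0.39 in the 4 columns of CECT10094, and in Temohaya-MI26 it was -0.10 early at 0%, -0.81 early at 10%, 0.11 late at 0% and 0.05 late at 10%. That of *PSD2*, in the same order, was -0.25, -0.33, 0.25 and 0.22 in CECT10094, while Temohaya-MI26 had -0.24, -1.05, 0.45 and -0.25. Both were lowest in the early sample at 10% of Temohaya-MI26. There the difference with ethanol was -0.71 for *PSD1* and -0.81 for *PSD2*, against 0.28 and -0.08 in CECT10094, all within the limits. In limma the early difference was -0.22 ± 0.37 (SE, adjusted p = 0.758) for *PSD1* and -0.44 ± 0.37 (SE, adjusted p = 0.467) for *PSD2*. The sign for *PSD1* in CECT10094 turned to -0.10 with centred columns and -0.03 after quantile normalization.

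*INO1* was high in a single sample. In CECT10094 its log2 ratio was -0.31 early at 0%, 1.82 early at 10%, 0.35 late at 0% and -0.44 late at 10%. In Temohaya-MI26 it was -0.42 early at 0%, -0.51 early at 10%, 0.30 late at 0% and -1.03 late at 10%. Early at 10% in CECT10094 it was among the highest values of the column, with 12 of 6094 ORFs above it, while the same treatment left it 0.51 below the pool in Temohaya-MI26.

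The early difference of *INO1* with ethanol was 2.13 in CECT10094, just under the limit of 2.29, and -0.10 in Temohaya-MI26. Of all ORFs, 97.0% had a lower difference in CECT10094 and 49.0% in Temohaya-MI26. The call in CECT10094 was made after quantile normalization and with the spread taken as the median absolute deviation, but not with centred columns. limma gave 1.02 ± 0.48 (SE, adjusted p = 0.179) over both strains. The strains differed in this effect by 2.23, a contrast with 98.7% of ORFs below it, and with 1 column per condition this difference was not tested.

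Among the regulators, *INO2*, which encodes a subunit of the activator, had early differences above 0 in both strains, within the limits. Its log2 ratio was -0.39 early at 0%, 0.85 early at 10%, 0.89 late at 0% and 0.09 late at 10% in CECT10094. In Temohaya-MI26 it was -0.16, 0.46, 1.50 and 0.64. Early at 0% was thus the lowest column in each strain, and late at 0% the highest. The early difference was 1.25 in CECT10094 and 0.62 in Temohaya-MI26 (limma 0.93 ± 0.35 SE, adjusted p = 0.0955).

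*INO4* moved least, and its strains were the closest of all 9 genes. In CECT10094 its log2 ratio was -0.22 early at 0%, 0.00 early at 10%, 0.64 late at 0% and -0.10 late at 10%, and in Temohaya-MI26 -0.26, -0.08, 0.60 and -0.04. The repressor gene *OPI1* had -0.14, 0.36, 0.84 and -0.08 in CECT10094, while Temohaya-MI26 had -0.55, -0.39, 0.84 and 0.22. Both genes were highest late at 0%. Early, their differences with ethanol were 0.23 and 0.18 for *INO4* and 0.51 and 0.16 for *OPI1*, in CECT10094 and Temohaya-MI26, and limma gave adjusted p = 0.749 and 0.57. The 0.23 of *INO4* became -0.15 with centred columns.

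Set beside all ORFs, the early differences of the 9 genes had a median of 0.94 in CECT10094, where that of all ORFs was 0.42, and of 0.16 in Temohaya-MI26, where it was -0.08. In both strains 6 of the 9 genes were above the median of all ORFs. The median fitted difference was 0.51 for the 9 genes and 0.17 for all ORFs.

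**Figure D2:**
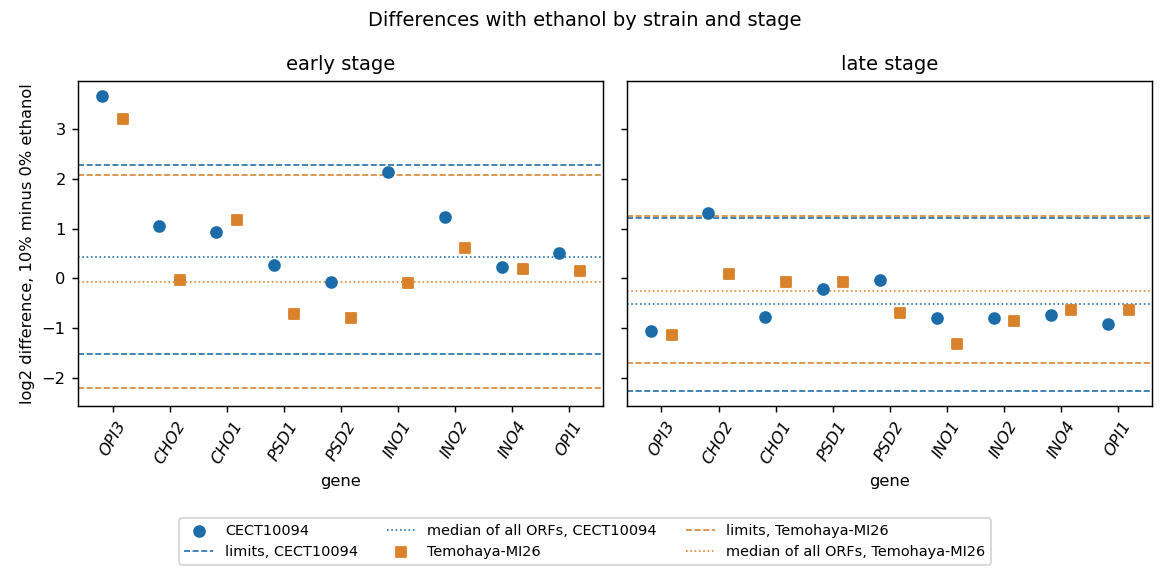
Log2 difference between 10 and 0% ethanol (y axis) for each of the 9 genes (x axis) in the early (left) and late (right) stage, with 1 point per strain, dashed lines at the limits and dotted lines at the median of all ORFs. *OPI3* passed the early limits in both strains (3.68 and 3.22), and *CHO2* passed the late limit in CECT10094 only (1.31).

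In the late stage CECT10094 had limits of -2.27 and 1.23, and Temohaya-MI26 of -1.71 and 1.25. Above and below them were 2.76% and 2.85% of ORFs in CECT10094 and 3.04% and 2.51% in Temohaya-MI26. *CHO2* was the only one of the 9 genes past a limit, with 1.31 in CECT10094, a ratio 2.48 times that without ethanol, and 97.7% of ORFs below it. It was 1.78 with centred columns and 2.03 after quantile normalization, and it fell short of limits that would hold 99%. In Temohaya-MI26 the difference was 0.09. The strains differed by 1.22 in this effect, which was not tested, and the ethanol samples also differed in hours, 28 against 40.

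The other 8 genes had late differences below 0 in CECT10094, and again 8 of 9 did in Temohaya-MI26, all but *CHO2*. The bulk of all ORFs was also below 0, with a median of -0.51 in CECT10094 and -0.25 in Temohaya-MI26, where the 9 genes had -0.79 and -0.64. In each strain 3 of the 9 genes were above the median of all ORFs, and 6 were below it. *OPI3* had -1.06 and -1.14, *INO2* -0.79 and -0.85, *OPI1* -0.92 and -0.63 and *INO4* -0.74 and -0.64, in CECT10094 and Temohaya-MI26. All 4 were below the median of all ORFs in both strains.

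*INO1* had the lowest late difference of the 9 genes, -1.33 in Temohaya-MI26, where 6.0% of ORFs were lower, and -0.79 in CECT10094. Late at 10% in Temohaya-MI26 its ratio was itself low, with 171 of 5832 ORFs below it. *CHO1* had -0.79 in CECT10094 and -0.06 in Temohaya-MI26, *PSD1* -0.22 and -0.07, and *PSD2* -0.03 and -0.69. Scaling turned the sign of 5 of these late differences, those of *PSD1* in both strains, *PSD2* and *INO2* in CECT10094 and *CHO1* in Temohaya-MI26.

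limma called none of the 9 genes with ethanol in the late stage, where 0.815% of all ORFs were called higher and 7.01% lower. *OPI3* came nearest, at -1.10 ± 0.35 (SE, adjusted p = 0.0767), followed by *INO2* at -0.82 ± 0.35 (SE, adjusted p = 0.166). An unadjusted p under 0.05 was found for 3 of the 9 genes and for 1578 of 5893 ORFs, which are similar shares. The fitted median was -0.69 for the 9 genes and -0.36 for all ORFs.

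The columns without ethanol were then compared between stages, 10 h against 1 h. These share the 0% columns with the ethanol comparisons, so a low value early at 0% enters both. *OPI3* was higher late by 4.05 in CECT10094 and 4.97 in Temohaya-MI26, *CHO1* by 1.61 and 2.20, *INO2* by 1.28 and 1.65 and *OPI1* by 0.98 and 1.39. The medians of all ORFs were 0.58 and 0.43. limma, in an additive fit of strain and condition, called these 4 genes higher and none of the 9 lower. Here too the other strain is the only repeat, and the spread between cultures is not measured. The late samples at 10%, which differ in hours between the strains, also enter the error of this fit.

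The fitted rise was 4.51 ± 0.40 (SE, limma adjusted p = 0.000932) for *OPI3*, 1.91 ± 0.37 (adjusted p = 0.00812) for *CHO1*, 1.47 ± 0.35 (adjusted p = 0.015) for *INO2* and 1.18 ± 0.35 (adjusted p = 0.0323) for *OPI1*. The same fit called 23.7% of all ORFs higher and 4.95% lower, with a median of 0.52 over all ORFs and 0.86 over the 9 genes. Scaling mattered here. With centred columns *OPI1* was no longer called, and after quantile normalization *OPI3* alone was, at 3.18 (adjusted p = 0.022).

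The other 5 genes were not called between the stages. *INO4* had 0.86 in both strains (limma adjusted p = 0.0547), *INO1* 0.66 in CECT10094 and 0.71 in Temohaya-MI26 (adjusted p = 0.333) and *PSD2* 0.51 and 0.69 (adjusted p = 0.209). *CHO2* had 0.20 and 0.61 (adjusted p = 0.469) and *PSD1* 0.16 and 0.21 (adjusted p = 0.724). At 10% ethanol the order of the stages differed between the strains for 6 genes, *OPI3*, *CHO1*, *PSD1*, *INO2*, *INO4* and *OPI1*, which were lower late in CECT10094 and higher late in Temohaya-MI26. There *OPI3* was -0.68 in CECT10094 and 0.61 in Temohaya-MI26 late minus early, while *INO1* was -2.26 and -0.52. The medians of all ORFs split in the same way, at -0.32 and 0.23, and the share of ORFs with this order was not counted. Relative to these medians *CHO1* was higher late in both strains (0.20 and 0.73) and *INO2* lower in both (-0.44 and -0.05). *INO4* turned to 0.22 and -0.19, while *OPI3* (-0.36 and 0.38), *OPI1* (-0.13 and 0.37) and *PSD1* (-0.01 and 0.625) kept the order. None of these differences at 10% was tested, and their late samples differ in hours.

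**Figure D3:**
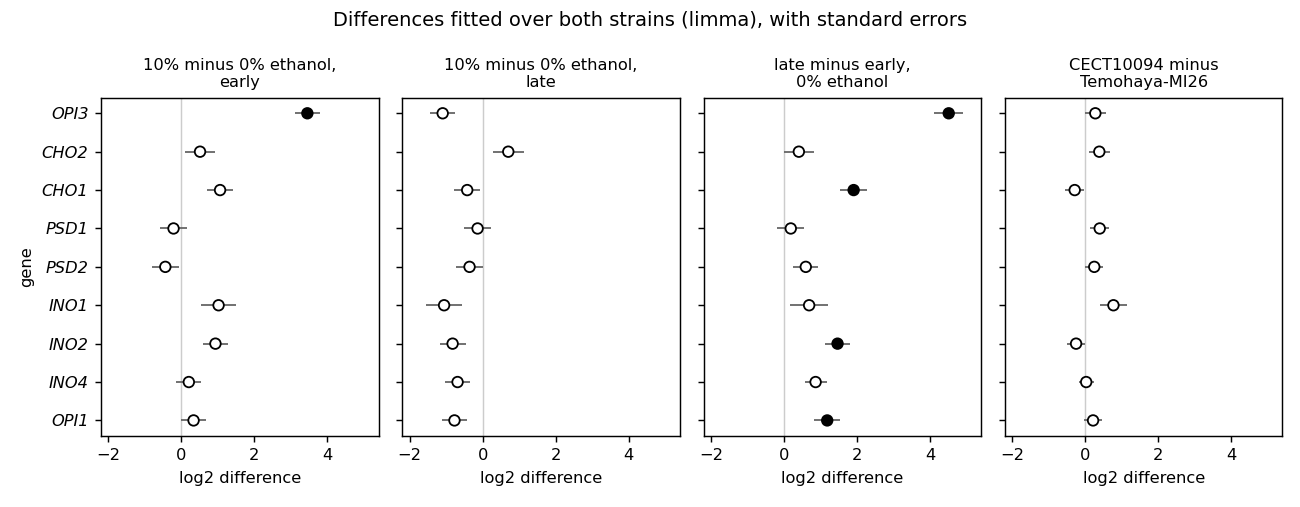
Fitted log2 differences (x axis) of the 9 genes (y axis) in limma, with bars of 1 SE, for ethanol early, ethanol late, late minus early at 0% and CECT10094 minus Temohaya-MI26. Filled points have an adjusted p under 0.05 over all ORFs, which were *OPI3* early with ethanol (3.45), and *OPI3*, *CHO1*, *INO2* and *OPI1* between the stages at 0%.

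Over the 4 conditions no gene of the 9 was called between the strains by limma, where 0.101% of all ORFs were called in either direction and 344 had an unadjusted p under 0.05, none of them among the 9. *INO1* had the largest fitted gap, 0.77 ± 0.37 (SE, CECT10094 minus Temohaya-MI26, adjusted p = 0.928), and *INO4* the smallest, 0.02 ± 0.21 (SE, adjusted p = 0.999). The gap of *INO1* was made by the ethanol samples, at 2.33 early and 0.59 late, against 0.10 early and 0.05 late at 0%. Early at 10% was also the column with the largest gap for *PSD1* (1.20), *CHO2* (1.11), *OPI3* (1.05), *OPI1* (0.75) and *PSD2* (0.72), all higher in CECT10094, where the median gap of all ORFs was 0.31. The largest gap of *CHO1* was -1.07, late at 10%, and that of *INO2* -0.61, late at 0%, followed by -0.55 late at 10%. Late at 10% the strains also differ in hours, 28 against 40, and this pair enters the fit as well.

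Across the 8 columns some of the 9 genes followed each other more than others, which is given as a description, since the columns share the pool and their scaling. Pearson's r was 0.91 between *OPI3* and *CHO1* and between *INO4* and *OPI1*, 0.88 between *OPI3* and *INO2*, 0.87 between *CHO1* and *INO2*, and 0.83 between *INO2* and both *INO4* and *OPI1*. *CHO2* had between 0.04 (with *INO4*) and 0.51 (with *OPI3*), and *INO1* between 0.08 (with *CHO1*) and 0.54 (with *PSD1*). *PSD1* and *PSD2* had 0.71 with each other, and *PSD1* had 0.17 with *CHO1*, 0.21 with *INO2* and 0.23 with *OPI3*.

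Of 5359 ORFs with values in every column, the 5 most like *OPI3* over the 8 columns were *MGA2*, *ATG33*, *MOG1*, *ATG22* and *GRX1*, with r between 0.97 and 0.98. Of these, *MGA2* encodes an activator of the fatty acid desaturase gene *OLE1*, *ATG33* and *ATG22* serve autophagy and the vacuole, *MOG1* serves nuclear import and *GRX1* encodes a glutaredoxin. *MOG1* is the gene next to *OPI3* on chromosome X. Its log2 ratio was -1.33 and -1.30 early at 0% in CECT10094 and Temohaya-MI26, and its early differences with ethanol were 1.97 and 0.99. Those of *GRX1* were 1.40 and 1.78, and those of *ATG33* 1.88 and 1.22.

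The 5 most like *INO1* were *LAM1*, *STE2*, *RIM20*, *CBP2* and *PRP46*, with r between 0.91 and 0.96. They include *LAM1*, a gene of the sterol transfer family, and *STE2*, the receptor of alpha factor. *STE2* was 1.72 early at 10% in CECT10094 and -0.25 in Temohaya-MI26, and its early difference was 1.70 and 0.23. The others had smaller ranges, with early differences in CECT10094 of 0.57 for *PRP46*, 0.86 for *LAM1*, 0.90 for *RIM20* and 1.02 for *CBP2*.

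The other genes of phospholipid metabolism were put into 8 lists with 52 genes, all of them measured. They were chosen with earlier results of these data known, and are given by counts. Early, 1 of 52 passed the upper limit in CECT10094, *GIT1*, and 2 the lower one, *HNM1* and *FAS2*. In Temohaya-MI26 *HNM1* alone passed a limit, the lower one, of 51 measured. Of all ORFs, 2.18% were above and 3.53% below the limits in CECT10094, and 3.08% were below in Temohaya-MI26. The counts of these lists are therefore near the background. The medians over all 8 lists were 0.85 against 0.42 for all ORFs in CECT10094, and -0.05 against -0.08 in Temohaya-MI26.

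*GIT1*, which encodes a permease that takes up glycerophosphoinositol, had its lowest values, like *OPI3*, after 1 h without ethanol. Its log2 ratio was -2.78 early at 0%, -0.24 early at 10%, -0.34 late at 0% and -0.90 late at 10% in CECT10094, while Temohaya-MI26 had -2.49, -0.43, 1.04 and -0.98. The early values at 0% were thus more than 1 below all its others. Its early difference was 2.53 in CECT10094, a call lost after quantile normalization, and 2.06 in Temohaya-MI26, just under the limit (limma 2.30 ± 0.41 SE, adjusted p = 0.00387). It lies on chromosome III, whose late columns at 0% were raised, and their part in its late values was not tested.

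*HNM1*, the choline and ethanolamine transporter gene, moved the other way. Its log2 ratio was 1.20 early at 0% and -0.52 early at 10% in CECT10094, and 1.39 and -1.87 in Temohaya-MI26. The differences were -1.72 and -3.25 (limma -2.49 ± 0.44 SE, adjusted p = 0.00374). Late, its values at 0 and 10% were 1.00 and 0.23 in the tolerant strain and -0.04 and 0.27 in Temohaya-MI26, all above its early values at 10%.

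limma called 7 of the 52 genes higher and 2 lower early with ethanol, where it called 10.5% and 6.94% of all ORFs, so the counts of these lists are near the background. The Kennedy pathway builds phosphatidylcholine and phosphatidylethanolamine from choline and ethanolamine. In its list 2 of 8 genes rose, while *HNM1* fell. *PCT1*, the gene of the rate-limiting step to CDP-choline, rose by 1.74 (adjusted p = 0.00672). The ethanolamine kinase gene *EKI1* rose by 1.29 (adjusted p = 0.0279). *PCT1* had the same difference, 1.74, in each strain on the deposited scale, where the median of all ORFs was 0.42 in CECT10094 and -0.08 in Temohaya-MI26. In 5 other lists 1 gene each rose, which were *GIT1*, *GPT2* (1.11), the first acyltransferase of phosphatidic acid synthesis, *CLD1* (1.37), a cardiolipin deacylase, *NEM1* (1.27), part of the phosphatase that activates Pah1p, and *YET3* (1.32), a partner of the Opi1p-Scs2p complex. Among 4 further genes with the inositol-sensitive element, *FAS2*, a fatty acid synthase subunit gene, fell by 1.33 (adjusted p = 0.0244), and none of 8 phospholipase genes was called. After quantile normalization *CLD1*, *GIT1* and *PCT1* stayed higher and *FAS2* and *HNM1* lower, and the other 4 calls were lost.

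Late with ethanol, 1 of 52 genes passed a limit in CECT10094, *SIN3*, a corepressor gene, at -2.52. In Temohaya-MI26 it was 1 of 51, *GIT1*, at -2.02. Both passed the lower limit, as did 2.85% of all ORFs in CECT10094 and 2.51% in Temohaya-MI26, so these counts are near the background. The list medians were -0.49 and -0.31, close to the -0.51 and -0.25 of all ORFs. In limma, beside 0.815% of all ORFs higher and 7.01% lower, no gene of the lists was higher and 2 were lower, the phospholipase B gene *PLB2* (-1.65, adjusted p = 0.0246) and *FAS1* (-1.36, adjusted p = 0.0379), and neither was called after quantile normalization. *HAC1*, whose product acts in the unfolded protein response, had -2.09 in CECT10094, within the lower limit of -2.27. It had no value late at 0% in Temohaya-MI26. Its early differences were 1.0 in CECT10094 and -0.39 in Temohaya-MI26. These are RNA levels, and the activity of its product was not measured by the arrays.

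Between the stages at 0%, 19 of the 52 genes were called higher and 1 lower, beside 23.7% and 4.95% of all ORFs. Those called higher were 5 of 8 in the Kennedy pathway list (*EKI1*, *CKI1*, *PCT1*, *EPT1* and *DPL1*). Of these, *DPL1* encodes an enzyme of sphingolipid breakdown. There were also 4 of 8 partners of the regulators (*SCS2*, *SIN3*, *UME6* and *YET3*) and 3 of 5 genes of inositol supply (*GIT1*, *ITR1* and *INM2*). The rest were 3 of 7 of phosphatidic acid synthesis (*GPT2*, *AYR1* and *ALE1*), 2 of 8 phospholipase genes (*PLB2* and *PLB3*) and 2 of 4 genes with the element (*FAS1* and *ACC1*). None of the 5 cardiolipin genes was called, and of 7 phosphatase and kinase genes only *DGK1*, the diacylglycerol kinase gene, was, lower by 1.02 (adjusted p = 0.0499). The largest fitted rises were 2.98 for *GIT1* and 2.71 for *PLB2*, which were also the only ones called higher after quantile normalization. The list median was 0.71, and that of all ORFs 0.52. In the strain comparison none of the 52 genes was called.

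**Figure D4:**
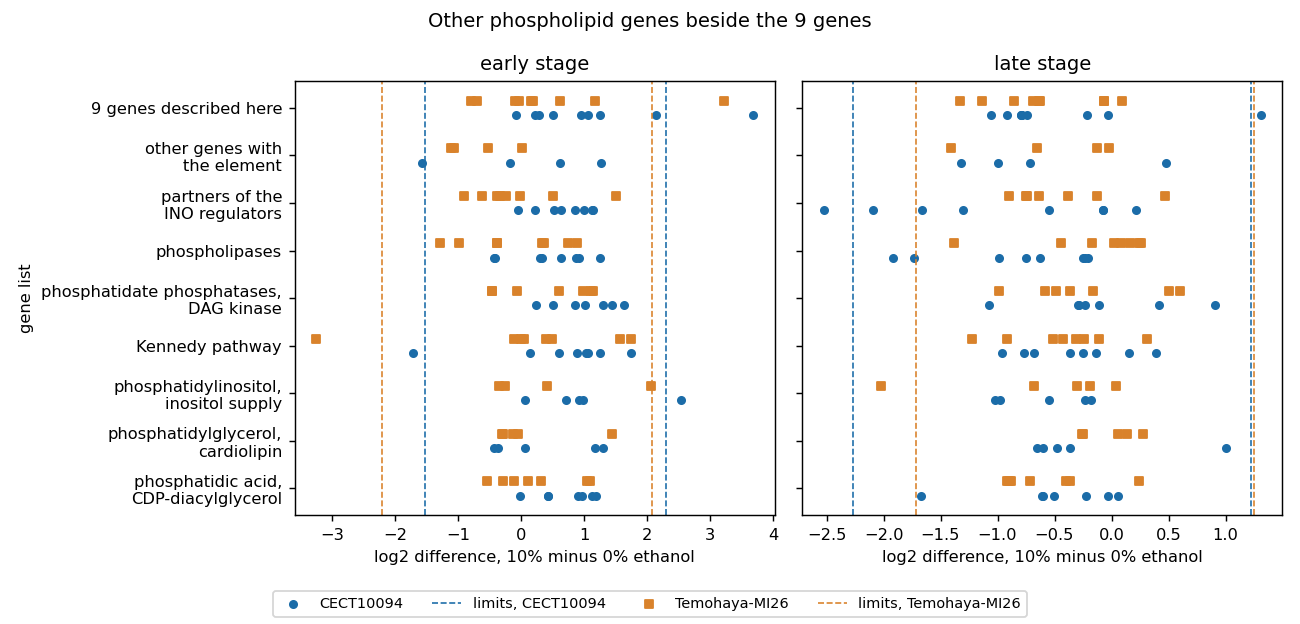
Log2 difference between 10 and 0% ethanol (x axis, with different ranges in the 2 panels) of the 9 genes and of 8 lists of other phospholipid genes (y axis), early on the left and late on the right, with 1 point per gene and strain and dashed lines at the limits. *OPI3* at 3.68 and 3.22 and *HNM1* at -3.25 in Temohaya-MI26 lay farthest out early, and most genes of the lists lay within the limits.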

How the data were processed

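The arrays were slides hybridized with labelled cDNA without dye swap, 24 in all, 3 per condition. The authors subtracted a global background (GenePix Pro 6.0), normalized the ratios (Acuity 4.0) and took the median of slides for spots with at least 2 replicates. The deposited values are the log2 ratios that resulted. The genome build and array annotation were not given in the sources used here. A second deposited table holds the authors' own log2 differences with ethanol and was not used.

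Of 6154 entries, 2 controls were left out. By locus tag, 5653 of 6152 ORFs matched RefSeq and 5128 had a name. limma 3.58.1 (R 4.3.3) was run on the 8 columns without further scaling, with p-values adjusted by Benjamini and Hochberg over 5905 ORFs for ethanol early, 5893 late and 5941 for strain and stage. The ethanol fit had 2 residual degrees of freedom and a prior of 9.17, the additive fit 3 and 6.69. Per the methods each slide came from its own biological replicate, but the columns hold medians over them.

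One gene is not reported here. The 9 genes, the lists and the tests were chosen with earlier results of these data known. Named were the 9 genes, list genes called by a limit or by limma, and the 5 genes most like *INO1* and *OPI3*. *HAC1*, a list gene with no call in the main setting, was added after its values were seen. The late limma difference of *HAC1*, -2.09, came from CECT10094 alone, so its call with a robust prior has no second strain behind it. That setting also called *AYR1*, *SCS2* and *SIN3* lower late with ethanol. Alternatives were centred or quantile-normalized columns, other limits and thresholds, a robust prior, an additive fit and ORFs with values in every column.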

Additional observations from a re-analysis of the deposited data

Results flagged for a closer look

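The early difference of *INO1* with ethanol had opposite signs in the 2 strains, 2.13 in CECT10094 and -0.10 in Temohaya-MI26. The difference between them, CECT10094 minus Temohaya-MI26, was 2.23. It was not tested, since each condition has 1 column. The signs were the same with centred columns (1.76 and -0.01) and after quantile normalization (2.09 and -0.07), and the value in Temohaya-MI26 was near 0 in each.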

How the results depend on the processing

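The number of the 9 genes past the early limits in CECT10094 went from 1 to 2 (*OPI3* and *INO1*) after quantile normalization and with the median absolute deviation as the spread, and to 4 with a fixed log2 difference of 1, which added *CHO2* and *INO2*. That fixed difference gave 2 in Temohaya-MI26 early (*OPI3* and *CHO1*), 2 in CECT10094 late (*CHO2* higher, *OPI3* lower) and 2 in Temohaya-MI26 late (*OPI3* and *INO1*, lower). Late in CECT10094 limits that would hold 99% of a normal distribution left 0, and late in Temohaya-MI26 quantile normalization gave 1 (*INO1*, lower). With an adjusted p under 0.10, limma called 3 genes early (*OPI3*, *CHO1* and *INO2*) and 1 late (*OPI3*). Between the stages quantile normalization left 1 of 4 calls, *OPI3*. No direction of a called value reversed. For single genes, 394 values under an alternative stayed on their side of the threshold, 15 passed it and 5 no longer did. Over all ORFs, limma called 622 higher and 410 lower early, 597 and 633 with centred columns and 417 and 529 after quantile normalization. Late it called 48 and 413, against 126 and 250 with centred columns and 37 and 29 after quantile normalization, and between the stages 1410 and 294, against 776 and 603, and 102 and 189. For the strains, 6 calls in all became 0 after quantile normalization. The cause was not tested. The planned use of the authors' difference table was not run, since it holds their own comparisons. No replicate could be left out and no replicate numbers could be paired, since each condition has 1 column, and the limma fit for ethanol already pairs 0 with 10% within each strain and stage. Signal over background is not in the values, so what dim spots limit is unknown.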
